A study of Mus musculus with 23 samples.

Results

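Fcgrt, B2m and Trim21 encode the proteins through which a mouse cell handles antibody that has already entered it, and they were taken by their symbols from the 32285 genes of the series' feature table, which makes 3 members of 32285. Fcgrt encodes the heavy chain of the neonatal Fc receptor (FcRn). The series measured RNA in single cells of the mouse brain 24 hours after an Alexa 647-labelled antibody had been injected intravenously at 45 mg/kg, and the cells were sorted by the dye into a negative bin and 3 positive bins (low, medium and high). Each library holds the sorted cells of 1 pool, made of 1 male and 1 female mouse of 12 weeks (3.3 months in the sample labels), and every treatment had 2 pools.

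ATV-TfR is an antibody whose Fc part carries a binding site for the transferrin receptor (labelled DNP02_hIgG1_LALAPG_ATV35.23.2), and it was given to TfR mu/hu knock-in mice. ATV-CD98hc binds the CD98 heavy chain (labelled DNP02 LALAPG LLB2-10-8 monovalent) and was given to CD98hc mu/hu knock-in mice. The control IgG (DNP02_hIgG1_LALAPG) was given to C57BL/6 mice. All 3 antibodies carry the LALAPG substitutions, which reduce binding to Fc gamma receptors and complement, so no group shows an antibody with an unmodified Fc effector part. Treatment and genotype coincide and cannot be told apart. The tissue was whole brain without olfactory bulb, cerebellum, pons and medulla, from perfused mice, dissociated with blockers of transcription and translation and depleted of myelin. The positive gates were set on the signal of ATV-TfR and used for all treatments, so a bin is a range of dye signal and not a share of the cells. ATV-TfR and ATV-CD98hc each gave 8 libraries and control IgG gave 7, since only pool 2 of its negative bin was analysed here.

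FcRn is a pair of 2 chains, the Fcgrt heavy chain and beta-2-microglobulin, the product of B2m. It binds the Fc part of IgG in acidified endosomes and returns it to the cell surface, which spares IgG from the lysosome. It is known for this role in endothelial cells and macrophages, and in brain endothelium for moving IgG out of the tissue. Beta-2-microglobulin is also the light chain of the MHC class I molecules and their relatives, and B2m is induced by interferons. Trim21 is a ubiquitin ligase of the cytosol that binds the Fc part of antibody that has escaped from endosomes, and its gene is interferon-stimulated.

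The sequences just upstream of the first base of B2m and around that of Trim21 are shown because both hold the motif of interferon-responsive promoters, GAAA and again GAAA with any 2 bases between them, and the stretch upstream of Fcgrt is shown because it does not. Sequences are from RefSeq on GRCm38.p6, the strand is that of the gene, and capitals mark motif matches. The window searched ran from 250 bases before to 50 bases after each start, on both strands. In B2m the first capitals are GAAACTGAAA (bases -139 to -130 from the start) and the second are a match to the NF-kB consensus on the opposite strand (-126 to -117), which does not overlap it.
Fcgrt, chr7:45103853-45104012 (minus strand, bases -190 to -31): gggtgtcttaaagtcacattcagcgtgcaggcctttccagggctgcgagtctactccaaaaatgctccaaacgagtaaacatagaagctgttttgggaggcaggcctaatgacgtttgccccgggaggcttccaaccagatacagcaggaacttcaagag
B2m, chr2:122147497-122147656 (plus strand, bases -190 to -31): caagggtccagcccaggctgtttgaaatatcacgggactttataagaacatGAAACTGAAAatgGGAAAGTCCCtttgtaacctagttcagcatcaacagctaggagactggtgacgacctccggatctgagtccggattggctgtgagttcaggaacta
Trim21, chr7:102565449-102565474 (minus strand, bases 9 to 34, in the first exon): gagagGAAACTGAAAGTGAAAtttgg
The Trim21 stretch holds 2 overlapping matches to this motif. That motif was found in 1126 of 32817 promoters of this length (3.43%), and in 10 of the 20 promoters of the interferon-stimulated genes used below. The NF-kB consensus was found in 1478 of 32817 promoters (4.50%) and in 8 of 11 promoters of the MHC class I and class I-like heavy chains that pair with B2m. Fcgrt had neither motif in its window. A match describes letters and not a bound site.

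In the RefSeq annotation on GRCm38, Fcgrt (ENSMUSG00000003420) lies on chromosome 7 from 45092993 to 45103822. B2m (ENSMUSG00000060802) lies on chromosome 2 from 122147687 to 122153082, and Trim21 (ENSMUSG00000030966) on chromosome 7 from 102557920 to 102565482. The identifiers are those of the series' feature table. The libraries were counted as unique molecular identifiers (UMIs), each standing for 1 captured RNA molecule. The deposited matrix held 265025 cell barcodes and 1129743851 UMIs. After filters and removal of likely doublets 234026 cells remained, 519 to 19342 per library, with medians of 2178 to 4873 UMIs per cell. Of 241978 distinct barcode sequences, 7598 occurred in more than 1 library, and no pair of libraries shared more than 119 (1.14% of the smaller library). Clustering and markers gave 17 named classes, and 3.04% of the cells stayed unnamed. The class names rest on markers and not on an annotation by the authors. Levels below are in CPM, the usual scaled count: UMIs of the gene relative to all UMIs of that class in 1 library or pool. Reads from the end of a transcript do not allow levels of different genes to be compared, so each gene is compared with itself only.

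Fcgrt was highest in endothelial-like cells in all 6 pools when the bins of a pool were summed. In the negative bin of ATV-TfR alone, fibroblast-like cells lay above endothelial-like cells in both pools. In the negative library of control IgG the endothelial-like cells were higher (values below). Over all bins the level of endothelial-like cells was 607 ± 95.2 CPM (SD, n = 6 pools), from 483 to 691. Fibroblast-like cells followed with 313 ± 41.5 CPM (n = 6), pericyte-like cells with 262 ± 30.6 CPM (n = 5) and border macrophage-like cells, the macrophages of the meninges and perivascular spaces, with 232 ± 64.3 CPM (n = 6). Among the cells of the tissue itself the levels were lower. Microglia-like cells had 82.8 ± 14.4 CPM (n = 6), choroid plexus epithelial-like cells 54.3 ± 20.8 CPM (n = 6), astrocyte-like cells 47.5 ± 4.23 CPM (n = 5) and oligodendrocyte-like cells 6.98 ± 5.24 CPM (n = 5). Monocyte or dendritic cell-like cells, at 124 ± 39.5 CPM (n = 6), and smooth muscle-like cells, at 114 ± 27.5 CPM (n = 5), stood between border macrophages and microglia. In cells without any UMI of 12 endothelial markers the level was 32.5 ± 2.99 CPM in choroid plexus epithelial-like cells (n = 6), 46.5 ± 4.00 CPM in astrocyte-like cells and 3.92 ± 1.80 CPM in oligodendrocyte-like cells (n = 5 each), so that the choroid plexus epithelial-like cells came after the astrocyte-like ones. Lymphocytes were near the bottom of the order, with 13.9 ± 8.33 CPM in B cell-like and 4.20 ± 5.88 CPM in T or NK cell-like cells. Neutrophil-like cells held no Fcgrt UMI among 467926 UMIs, which allows a level of up to 6.41 CPM for counting error alone.

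At least 1 Fcgrt UMI was found in 83.6% of endothelial-like cells (mean over pools, median depth 3585 UMIs), in 2.75% of oligodendrocyte-like cells (5617 UMIs) and in 0 of 197 neutrophil-like cells. With every cell thinned to 1000 UMIs the shares were 44.7% in endothelial-like and 0.523% in oligodendrocyte-like cells. Neighbouring classes in the order were compared within pools by an exact two-sided sign-flip permutation test, for 36 pairs over the 3 genes. With 6 pools the smallest p it can give is 0.0312 and with 5 it is 0.0625, and no pair passed after Benjamini-Hochberg adjustment (lowest adjusted p = 0.141 by this exact test). The step from endothelial-like to fibroblast-like cells, 0.95 ± 0.09 on the log2 scale (SD), had the same sign in 6 of 6 pools. By contrast pericyte-like and border macrophage-like cells (3 of 5 pools) and choroid plexus epithelial-like and astrocyte-like cells (3 of 5 pools) did not differ beyond their spread when all cells were used. Without endothelial marker UMIs pericyte-like cells had 256 ± 28.8 CPM (n = 5) and border macrophage-like cells 174 ± 23.7 CPM (n = 6). Choroid plexus epithelial-like cells then had 32.5 ± 2.99 CPM (n = 6) and astrocyte-like cells 46.5 ± 4.00 CPM (n = 5). Both pairs lay apart by more than their SDs in those cells, which were not compared within pools.

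B2m was highest in 5 classes of immune cells, and the cells of the vessel wall lay below those. T or NK cell-like cells had 1382 ± 245 CPM (n = 5), border macrophage-like cells 1005 ± 159 CPM (n = 6), monocyte or dendritic cell-like cells 772 ± 153 CPM, microglia-like cells 743 ± 258 CPM and B cell-like cells 666 ± 117 CPM (n = 6 each). Endothelial-like cells had 456 ± 46.9 CPM (n = 6), neutrophil-like cells 378 ± 59.6 CPM (n = 4) and fibroblast-like cells 295 ± 33.0 CPM (n = 6). Pericyte-like cells, which lie on the same vessels, had 112 ± 12.6 CPM (n = 5). Astrocyte-like cells had 41.1 ± 4.49 CPM and oligodendrocyte-like cells 21.0 ± 9.17 CPM (n = 5 each). Levels in endothelial-like cells were below those of B cell-like cells and above those of fibroblast-like cells in 6 of 6 pools. Microglia-like cells did not differ beyond their spread from monocyte or dendritic cell-like cells (lower in 5 of 6 pools) or from B cell-like cells (higher in 4 of 6).

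Trim21 was sparse in every class. The highest levels, 24.2 ± 10.5 CPM in T or NK cell-like (n = 5) and 19.6 ± 5.97 CPM in B cell-like cells (n = 6), rest on 14 and 11 UMIs in all. Border macrophage-like cells had 18.0 ± 3.80 CPM, endothelial-like cells 16.1 ± 0.939 CPM and microglia-like cells 13.3 ± 7.85 CPM (n = 6 each). Endothelial-like cells carried most of the gene's UMIs (6138), and their pools lay between 14.9 and 17.4 CPM. Fibroblast-like cells had 10.2 ± 2.28 CPM (n = 6), astrocyte-like cells 2.88 ± 0.225 CPM (n = 5) and oligodendrocyte-like cells 1.49 ± 0.563 CPM (n = 5). None of the first 7 classes in the order differed from its neighbour beyond their spread. A Trim21 UMI was present in 6.18% of endothelial-like cells, and in 1.58% after thinning to 1000 UMIs.

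**Figure D1:**
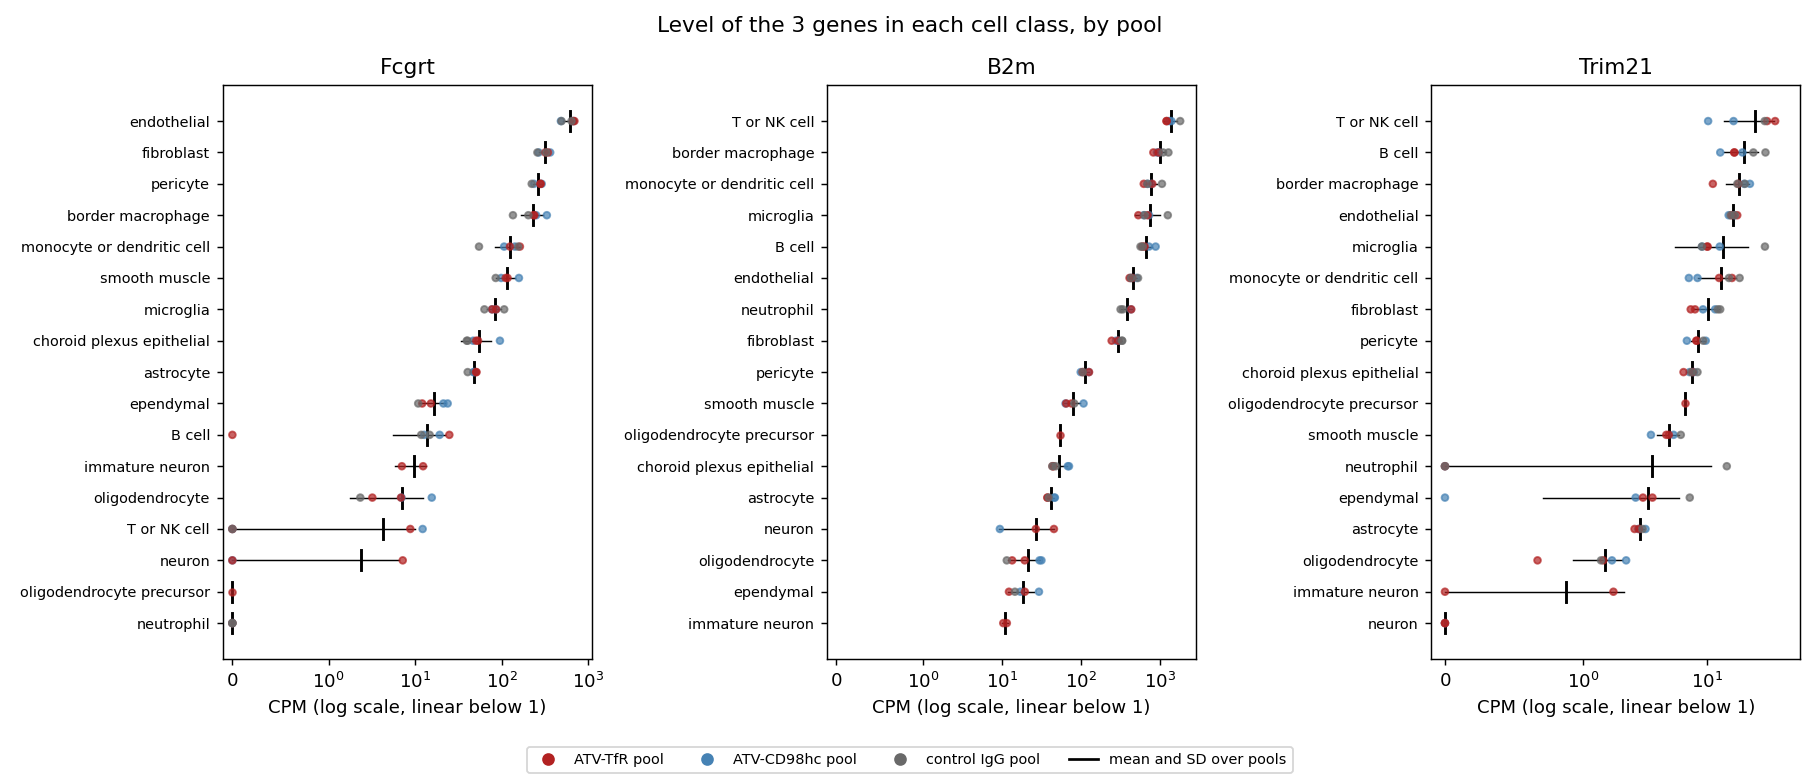
Level of each gene in CPM (log axis, linear below 1) by cell class, with 1 point per pool coloured by treatment, and the mean with its SD in black. Fcgrt peaks in endothelial-like cells at 607 CPM, whereas B2m and Trim21 peak in T or NK cell-like cells at 1382 and 24.2 CPM.

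Across 82 points, each 1 class in 1 pool, over 17 classes, the genes whose log2 level was most like Fcgrt among 11603 genes included Eng (Pearson's r = 0.81), Sult1a1 (0.81), Nid2 (0.80) and Rras (0.78). Eng encodes endoglin, a co-receptor of endothelial cells, and Nid2 a basement membrane protein. For B2m the 5 most alike were Psmb8, a subunit of the immunoproteasome (0.95), Klhl6 (0.93), the class I-like heavy chain gene H2-T23 (0.92), Sp100 (0.92) and Sp110 (0.92). For Trim21 they were the class I-like heavy chain gene H2-M3 (0.84), Trim5 (0.80), Elk3 (0.80), the RNA sensor gene Ddx58 (0.79) and the immunoproteasome gene Psmb10 (0.78). Among the members themselves r was 0.22 for Fcgrt with B2m, 0.44 for Fcgrt with Trim21 and 0.73 for B2m with Trim21. These values describe the classes, which share libraries, and carry no test.

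Across 4 subclusters of the endothelial-like cells Fcgrt and B2m were ordered in nearly opposite ways. The cells were clustered again without the 3 genes, which gave 4 subclusters that are left unnamed and called by number. Subcluster 0 (313 cells) is led by Plvap, Igfbp3 and Esm1 and showed all 6 markers of fenestrated endothelium. Subcluster 1 is led by Gkn3, Mgp and Stmn2, subcluster 2 by haemoglobin genes, Tmsb10, Slc38a5 and the mural cell genes Vtn, Ndufa4l2 and Myl9, and subcluster 3 by Sdk1 and Unc13c. Fcgrt was 707 ± 97.7 CPM in subcluster 2, 587 ± 67.9 CPM in 3 and 499 ± 88.5 CPM in 1 (n = 6 pools each), and 169 ± 31.6 CPM in subcluster 0 (n = 5). B2m ran from 1017 ± 313 CPM in subcluster 0 (n = 5) through 542 ± 70.2 CPM in 1 and 451 ± 49.1 CPM in 2 to 413 ± 55.5 CPM in 3 (n = 6 each). Subcluster 0 had less Fcgrt and more B2m than subcluster 1 in 5 of 5 pools, by 1.56 ± 0.34 and 0.85 ± 0.33 on the log2 scale (SD). Trim21 ranged from 24.3 ± 12.3 CPM in subcluster 0 to 14.1 ± 1.71 CPM in 1. The lowest adjusted p over the 9 neighbouring pairs was 0.0938 by the exact two-sided sign-flip permutation test, and no pair passed. In the 6 endothelial-like clusters of all cells the Plvap cluster was again lowest in Fcgrt and highest in B2m, with 170 ± 25.1 and 1068 ± 352 CPM. The cluster led by Gkn3 came next, with 422 ± 76.2 CPM of Fcgrt and 598 ± 67.1 CPM of B2m. The remaining clusters were not in opposite order. They had 679, 648, 612 and 562 CPM of Fcgrt and, in the same sequence, 444, 472, 417 and 393 CPM of B2m.

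**Figure D2:**
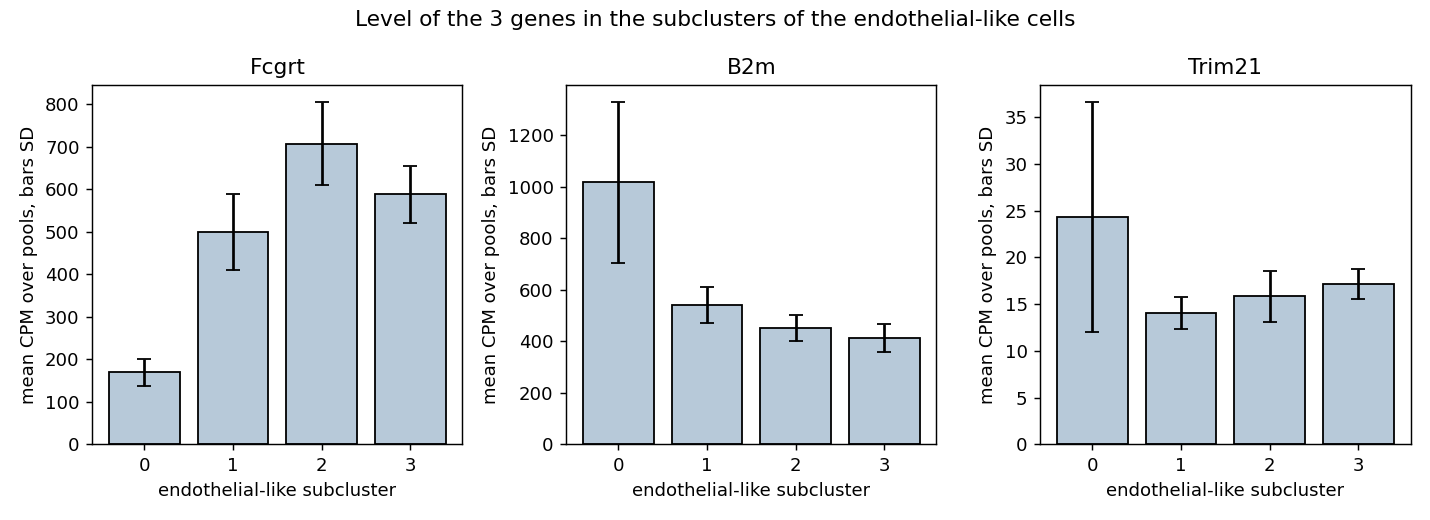
Mean CPM of each gene in the 4 endothelial-like subclusters, with bars for the SD over 5 or 6 pools. Fcgrt is lowest and B2m highest in subcluster 0, at 169 and 1017 CPM.

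The question of the main comparison was whether cells that held more antibody differed in these genes from cells of the same class that held less. In endothelial-like cells Fcgrt was higher in the medium and high bins than in the negative bin under both ATVs. Under ATV-TfR its 2 pools had 309.8 and 292.5 CPM in the negative bin, 350.6 and 302.5 CPM in the low bin, 577 and 584 CPM in the medium bin and 685 and 708 CPM in the high bin. The medium and high libraries all lay above the negative and low ones. Under ATV-CD98hc the negative bin had 296 and 339 CPM, the low bin 576 and 548 CPM, the medium bin 469.2 and 679.7 CPM and the high bin 494 and 681 CPM. Here the low libraries already lay above both negative ones, and the positive bins overlapped each other. The control IgG had 474 CPM in the negative bin (1 library), 647 and 505 CPM in the low bin and 306 and 469 CPM in the medium bin, the last from 26 and 76 Fcgrt UMIs, so that the low libraries lay above the negative one and the medium libraries below it.

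In edgeR's quasi-likelihood test (adjusted over 15500 genes) Fcgrt was higher in the high than in the negative bin by 1.47 (log2, SE 0.25, adjusted p = 0.000182) under ATV-TfR, where 10.6% of all genes were called. It was higher by 1.12 (SE 0.26, adjusted p = 0.00846) under ATV-CD98hc, where 5.14% were called. Medium minus negative gave 1.05 (adjusted p = 0.0106, edgeR; 5.27% of genes called) and 1.05 (adjusted p = 0.0192; 3.83% called). Low minus negative was 0.14 under ATV-TfR (adjusted p = 0.965; 0.342% called) and 0.88 under ATV-CD98hc (edgeR, adjusted p = 0.146; 0.768% called), and the latter was called with the pool as a block (adjusted p = 0.000307). High minus low under ATV-TfR was 1.34 (edgeR, adjusted p = 0.000328; 11.9% called). Under control IgG low minus negative was 0.34 (edgeR, adjusted p = 0.858; 3.83% called) and medium minus negative -0.36 (adjusted p = 0.882; 0.394% called). The rise under ATV-TfR exceeded that under ATV-CD98hc by 0.35 (95% interval -0.39 to 1.09), which was not called (edgeR, adjusted p = 0.925; 0.0194% called). The scaling bears on these values. With TMM factors the median expressed gene moved by 0.27 under ATV-TfR and 0.24 under ATV-CD98hc, and with DESeq2's size factors in edgeR by 0.01 in both, where Fcgrt was 1.21 and 0.89 higher. In counts simulated at the depths of the ATV-TfR comparison the median of unchanged genes under TMM factors lay above 0 too. The simulation gave all genes the same dispersion and held no difference in subclusters between bins. The part of depth in the shift of the data was therefore not tested. The calls rest on both pools. Without ATV-TfR pool 1 or 2 the adjusted p of the ATV-TfR rise was 0.0585 or 0.0997 in edgeR, with 1.50 and 1.36 as its size. For ATV-CD98hc it was 0.085 without its pool 2 (0.82), and 0.0594 and 0.0559 without pools 1 and 2 of ATV-TfR, which lend their spread. Medium minus negative was lost without ATV-TfR pool 1 or 2, for ATV-TfR (1.08 and 0.98, edgeR adjusted p = 0.352 and 0.474) and for ATV-CD98hc (0.97 and 1.05, adjusted p = 0.12 and 0.101), and for the latter without its own pool 2 (0.72, adjusted p = 0.211). High minus low of ATV-TfR was lost without its pool 1 or 2 (1.42 and 1.17, adjusted p = 0.0542 and 0.162).

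The negative bins held few endothelial-like cells, 125 and 83 under ATV-TfR and 80 and 60 under ATV-CD98hc, and many of them were of subcluster 0, which is low in Fcgrt. That subcluster was 37.6% and 31.3% of the negative-bin cells under ATV-TfR and 8.75% and 13.3% under ATV-CD98hc, against at most 0.0891% in a high bin. Without it the negative bins of ATV-TfR had 375 and 333 CPM of Fcgrt. Within subcluster 1 alone Fcgrt went from 275 and 225 CPM in the negative to 594 and 621 CPM in the high bin of ATV-TfR, and from 267 and 234 to 432 and 556 CPM under ATV-CD98hc. The change within subcluster 1 was called in both (edgeR, 1.40 and 1.13). This subcluster is itself mixed, with 7 of 8 capillary and 7 of 8 arterial markers shown. At resolution 0.6 a subcluster led by Mgp and Gkn3 had 379 ± 71.9 CPM of Fcgrt (n = 6 pools). One led by Slc26a10 and Lypd1 had 597 ± 79.3 CPM (n = 6). Whether the mix within subcluster 1 differed between bins was not tested. Subclusters 2 and 3 had fewer than 20 cells in every ATV negative library. Over the ATV-TfR low, medium and high bins subcluster 2 had 809 (pool 1 alone), 777 and 753, and 787 and 805 CPM of Fcgrt. Subcluster 3 had 653 (pool 1 alone), 592 and 558, and 643 and 638 CPM, so neither rose from the low to the high bin. Under ATV-CD98hc subcluster 2 had 798 and 788 CPM in the low and 596 and 766 CPM in the high bin. Subcluster 3 had 693 and 582 against 498 and 611 CPM. Markers of other cells moved too. The summed level of 9 astrocyte markers in endothelial-like cells was 237 to 546 CPM in the negative and 139 to 142 CPM in the high bin of ATV-TfR, and that of the 12 endothelial markers 22566 to 23184 against 31841 to 32126 CPM. Their part in the result was not tested.

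B2m did not follow Fcgrt. Under ATV-TfR endothelial-like cells had 599 and 681 CPM of B2m in the negative bin, 570.0 and 637 CPM in the low, 459 and 532 CPM in the medium and 401 and 433 CPM in the high bin, so that both high libraries lay below every negative and low one. Under ATV-CD98hc the negative bin had 541 and 582 CPM and the high bin 483 and 408 CPM, also without overlap. By edgeR neither difference was called, at -0.35 (SE 0.21, adjusted p = 0.33) and -0.13 (SE 0.22, adjusted p = 0.837). DESeq2 put the ATV-TfR difference at -0.61 and called it (adjusted p = 0.0132). Without subcluster 0 the negative bins of ATV-TfR had 461 and 561 CPM, and within subcluster 1 the negative libraries (501 and 596 CPM) lay above the high ones (456 and 484 CPM), with an edgeR difference of -0.08 that was not called. Under ATV-CD98hc the negative (562 and 608 CPM) and high libraries (604 and 484 CPM) of subcluster 1 overlapped, and the difference was 0.0574 (edgeR, not called).

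The ratio of Fcgrt to B2m UMIs in the same cells needs no scaling between libraries. Under ATV-TfR it was 0.517 and 0.430 in the negative bin, 0.615 and 0.475 in the low, 1.26 and 1.10 in the medium and 1.71 and 1.64 in the high bin, a slope of 0.66 log2 units per bin. Under ATV-CD98hc it went from 0.546 and 0.583 in the negative to 1.02 and 1.67 in the high bin, a slope of 0.37. Under control IgG it was 0.930 in the negative, 1.53 and 0.950 in the low and 0.619 and 0.528 in the medium bin, a slope of -0.45 over 5 libraries. The slopes are given as a description, and no test of them is reported here. The measure was chosen after the levels were seen. It compares bins only and does not give the proportion of the 2 chains.

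Trim21 had 7 and 8 UMIs in the negative bins of ATV-TfR (13.1 and 22.5 CPM) and 1104 and 1034 UMIs in the high bins (17.7 and 15.9 CPM), and the groups overlapped. High minus negative was 0.25 (SE 0.33; 95% interval -0.44 to 0.94; edgeR, adjusted p = 0.698) under ATV-TfR and 0.57 (SE 0.47; 95% interval -0.41 to 1.55; adjusted p = 0.662) under ATV-CD98hc. Each negative library of ATV-CD98hc held 3 Trim21 UMIs. Changes within these intervals remain compatible with the counts, and the smallest detectable change was not computed.

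**Figure D3:**
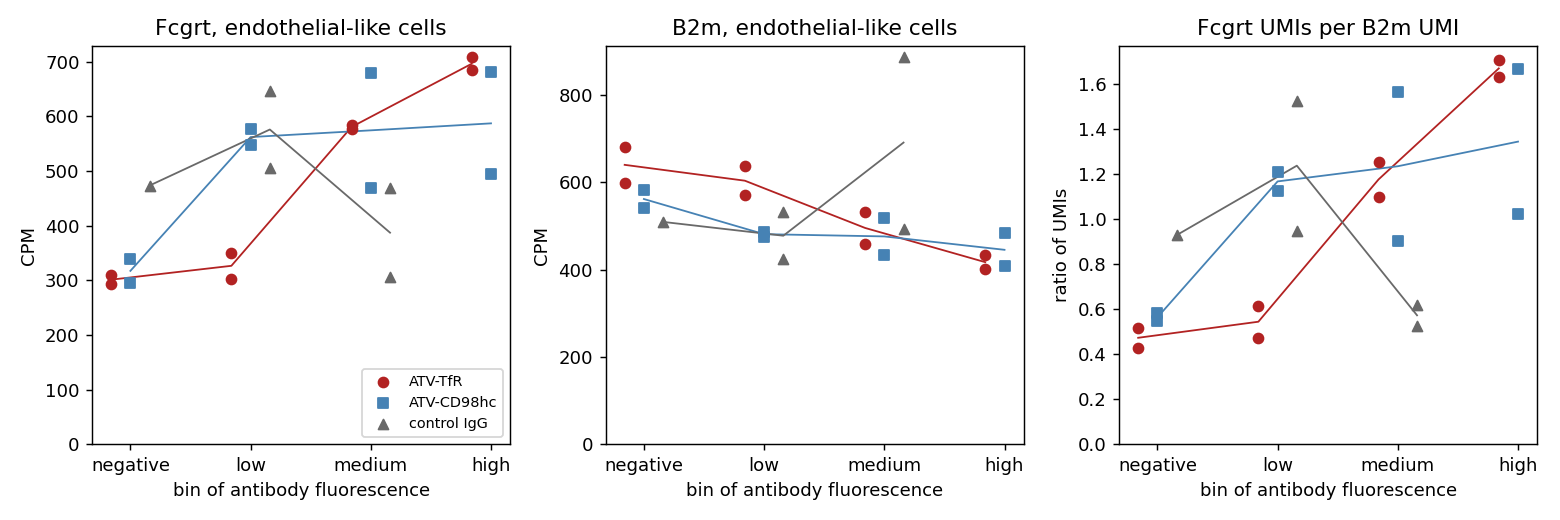
Fcgrt and B2m in CPM and the ratio of their UMIs in endothelial-like cells by bin of antibody fluorescence, with 1 point per library of at least 20 cells and lines through the means. Fcgrt of ATV-TfR climbs from 309.8 and 292.5 to 685 and 708 CPM while B2m goes from 599 and 681 to 401 and 433 CPM.

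Treatments were compared within bins. In the low bin Fcgrt of endothelial-like cells was lower under ATV-TfR (351 and 303 CPM) than under ATV-CD98hc (576 and 548 CPM), without overlap, by -0.81 (log2, SE 0.24). The cells of this bin fell into different subclusters: subcluster 1 was 79.3% and 75.8% of them under ATV-TfR and 48.2% and 42.7% under ATV-CD98hc, and subcluster 2, where Fcgrt was highest, 8.41% and 8.21% against 24.1% and 35.9%. Within subcluster 1 Fcgrt was 322 and 299 CPM under ATV-TfR and 470 and 430 CPM under ATV-CD98hc, also without overlap (-0.55, edgeR adjusted p = 0.374). This was not seen in the other subclusters with enough cells. Subcluster 2 had 809 CPM under ATV-TfR (pool 1 alone, 26 cells) and 798 and 788 CPM under ATV-CD98hc. Subcluster 3 had 653 CPM (pool 1 alone, 24 cells) against 693 and 582 CPM. The difference over all endothelial-like cells was not called by edgeR (adjusted p = 0.101; 1.96% of genes called) and was called by DESeq2 (-0.76, adjusted p = 0.0387) and by edgeR with no filter on low counts (-0.78, adjusted p = 0.0159). It was also called without ATV-CD98hc pool 1 or 2 or control IgG pool 1 (edgeR, adjusted p = 0.0176, 0.0136 and 0.0426), and over the alternatives its adjusted p ran from 0.0136 to 0.833. In the negative bin (310 and 293 against 296 and 339 CPM) and the medium bin (577 and 584 against 469 and 680 CPM; -0.07, not called by edgeR; 5.41% called) Fcgrt of the ATVs overlapped. In the high bin the order was the other way, with 685 and 708 CPM under ATV-TfR above 494 and 681 CPM under ATV-CD98hc (0.28, edgeR adjusted p = 1; 0.123% called). The lowest of these, ATV-CD98hc pool 1, had 76.9% of its cells in subcluster 3 and 7.87% in subcluster 2, against 24.1% and 55.2% in pool 2 and 26.4% to 33.7% and 42.1% to 49.0% under ATV-TfR, and the part of these shares in the difference was not tested. In subcluster 1 alone Fcgrt of the high bin was 594 and 621 CPM under ATV-TfR and 432 and 556 CPM under ATV-CD98hc. Against the control IgG, over the low and medium bins, Fcgrt differed by -0.14 under ATV-TfR (95% interval -0.52 to 0.23; 5.67% of genes called) and by 0.30 under ATV-CD98hc (95% interval -0.07 to 0.67; 2.17% called). With at least 50 cells per library, which leaves the low bin alone (351 and 303 CPM against 647 and 505 CPM, without overlap), the ATV-TfR difference was -0.90 and was called (edgeR, adjusted p = 0.00469). Here too the subclusters differed, with subcluster 1 at 5.27% and 4.78% of the low-bin cells of control IgG and subcluster 3 at 46.4% and 87.1%, against 7.77% and 7.73% under ATV-TfR. In the low bin of subcluster 1 Fcgrt was 513 and 402 CPM under control IgG (55 and 105 cells), above both ATV-TfR libraries, and the difference was -0.50 (edgeR, adjusted p = 0.289). No member was called in these contrasts by edgeR with at least 20 cells, and B2m was at -0.09 and -0.23.

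Of the genes that work with the members, 92 in 7 lists were followed in endothelial-like cells, and 91 passed the filter on low counts. High minus negative, 13 of them rose and 5 fell under ATV-TfR and 3 rose and 1 fell under ATV-CD98hc. Of all 15500 genes 633 rose and 1013 fell under ATV-TfR, and 254 rose and 542 fell under ATV-CD98hc. Of the 17 genes of recycling traffic, the route on which FcRn returns IgG, 3 rose and 1 fell under ATV-TfR (median 0.33 log2 units, against 0.20 for all genes) and 1 rose and 1 fell under ATV-CD98hc (0.20 against 0.23). Rab11fip1, an effector of the recycling GTPase Rab11, had 54.1 and 50.6 CPM in the negative and 148 and 146 CPM in the high bin of ATV-TfR (1.75, SE 0.24, edgeR adjusted p = 1.45e-05) and rose by 1.65 under ATV-CD98hc (SE 0.28, adjusted p = 0.000322). Rab4a, a GTPase of fast recycling, rose by 1.56 under ATV-TfR and was at 1.01 under ATV-CD98hc (adjusted p = 0.254). Exoc2, a subunit of the exocyst, rose by 1.01 under ATV-TfR. Ehd4, an endosomal ATPase, went the other way, from 698 and 501 CPM to 91.5 and 86.1 CPM under ATV-TfR and from 235 and 345 CPM to 90.8 and 88.9 CPM under ATV-CD98hc (-2.50 and -1.45, edgeR adjusted p = 1.88e-09 and 6.41e-05).

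The 12 heavy chains that pair with B2m had a median of -0.24 under ATV-TfR, with 1 higher and 2 lower, and of -0.07 under ATV-CD98hc, with none called. Those lower under ATV-TfR were the class I-like genes H2-Q6 (-2.76, edgeR adjusted p = 0.000763) and H2-Q7 (-2.26, adjusted p = 0.00298). Both rest on 10 to 36 UMIs per negative library. Their sequences are close, which limits how well reads can be assigned to either gene. H2-T24 rose by 1.30 (adjusted p = 0.0158). The classical heavy chain genes H2-D1, at 1126 ± 133 CPM in endothelial-like cells, and H2-K1, at 615 ± 91.1 CPM (SD, n = 6 pools), were not among those called. None of the 14 genes of class I peptide supply was called under either ATV by edgeR.

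Of the 15 partners and effectors of Trim21, Ube2d3 (0.73) and Ube2v2 (0.67), genes of ubiquitin conjugation, rose under ATV-TfR and Irf8 fell (-3.97, from 5 and 1 UMIs in the negative bin, edgeR adjusted p = 0.00836). Irf8 is a factor of macrophages and microglia. Of the 20 interferon-stimulated genes 5 rose under ATV-TfR, among them Ifit1 (1.20, edgeR adjusted p = 0.00218), Xaf1 (0.76) and Oasl2 (0.75), with a list median of 0.54. Under ATV-CD98hc 1 rose, Iigp1 (1.25, adjusted p = 0.00909), with a list median of 0.36. Fcer1g, the shared chain of the Fc gamma receptors, was near absent, with 22.4 and 11.3 CPM in the negative and 1.11 and 0.677 CPM in the high bin of ATV-TfR (-4.04, edgeR adjusted p = 7.52e-06). In border macrophage-like cells it stood at 2325 ± 762 CPM. The 9 microglia markers summed to 124 to 228 CPM in these negative bins and to 71.1 to 92.2 CPM in the high bins, and their part in the Irf8 and Fcer1g values was not tested. Mfsd2a, the lipid carrier that restrains transcytosis at the blood-brain barrier, went from 56.0 and 50.6 CPM to 376 and 392 CPM under ATV-TfR (3.11, adjusted p = 2.87e-08, edgeR) and rose by 2.14 under ATV-CD98hc (adjusted p = 1.58e-05). Cav2, a caveolin, rose by 0.62 under ATV-TfR. These list values are of all endothelial-like cells, whose subclusters differed between bins: under ATV-TfR subcluster 1 was 48.8% and 51.8% of the negative and 24.3% and 24.6% of the high bin, and subcluster 2 3.2% and 9.64% against 42.1% and 49.0%. Subcluster 1 showed both arterial and capillary markers, and Mfsd2a is itself among the 8 capillary markers used. The part of a differing mix of these cells in the values of subcluster 1 was not tested. Within subcluster 1 Mfsd2a was 68.7 and 39.3 CPM in the negative and 387 and 398 CPM in the high bin of ATV-TfR. Its rise was called there under both ATVs (2.94 and 3.37, edgeR adjusted p = 1.73e-07 and 2.13e-07). Rab11fip1 was called there under both (1.75 and 2.37, edgeR adjusted p = 0.00121 and 0.000736). Ehd4 was at -1.01 there under ATV-TfR and called (edgeR, adjusted p = 0.00071), and was not called under ATV-CD98hc (-0.45, adjusted p = 0.393). Ube2d3 (0.71), Ifit1 (0.79), Xaf1 (0.87) and Fcer1g (-3.55) were also called in subcluster 1 under ATV-TfR, and Iigp1 (2.40) and Ifit1 (1.01) under ATV-CD98hc. Rab4a (1.63), Exoc2 (0.44), Ube2v2 (0.33), Oasl2 (0.80), Irf8 (-2.60), Cav2 (0.42) and the heavy chain genes H2-Q6 (-2.11), H2-Q7 (-1.75) and H2-T24 (1.28) were not called there under ATV-TfR (edgeR, adjusted p = 0.125 to 0.521). With DESeq2's size factors in edgeR 4 of the list genes rose and 8 fell under ATV-TfR.

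**Figure D4:**
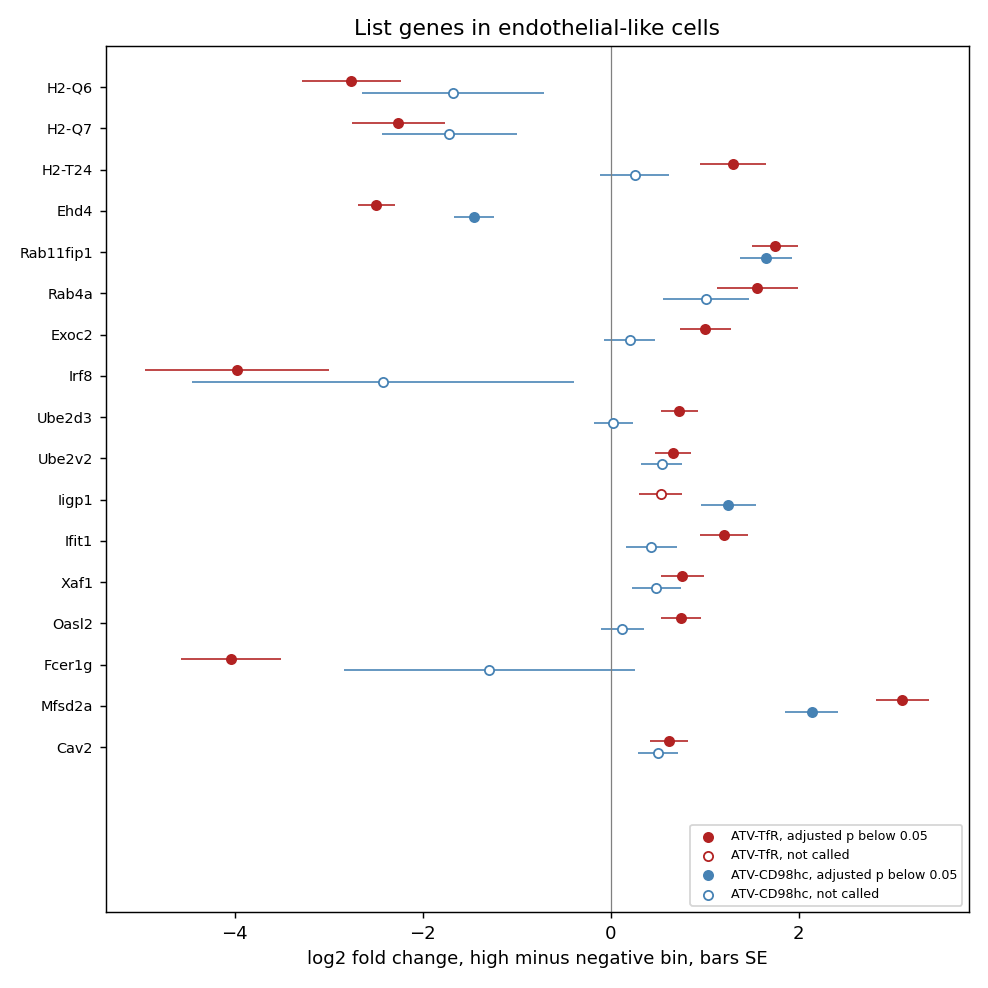
Log2 fold change, high minus negative bin, of the named list genes in endothelial-like cells, with bars for the SE and filled points for an adjusted p below 0.05. Mfsd2a and Rab11fip1 rise and Ehd4 falls under both ATVs, by 3.11 and 2.14, 1.75 and 1.65, and -2.50 and -1.45.

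In astrocyte-like cells it was B2m that rose with the antibody signal. Under ATV-TfR the pools had 30.9 and 28.7 CPM of B2m in the negative bin, 31.6 and 31.9 CPM in the low, 41.5 and 43.9 CPM in the medium and 87.0 and 69.5 CPM in the high bin. Medium and high libraries all lay above the negative and low ones. Medium minus negative was 0.57 (edgeR, SE 0.11, adjusted p = 0.00251; 4.32% of 16009 genes called) and high minus negative 1.52 (SE 0.12, adjusted p = 2.31e-07; 16.8% called), while low minus negative was 0.12 and not called (1.41% called). The medium-bin call was lost without ATV-TfR pool 1 or 2 (0.67 and 0.51, edgeR adjusted p = 0.0759 and 0.344). Under ATV-CD98hc B2m had 30.1 and 31.5 CPM in the negative, 50.4 and 44.7 CPM in the low, 60.0 and 66.0 CPM in the medium and 51.4 and 43.4 CPM in the high bin. It was higher by 0.66 in the low (adjusted p = 0.000848, edgeR; 2.82% called) and 1.09 in the medium bin (adjusted p = 1.31e-06; 15% called). The high bin, from 41 and 29 UMIs, was at 0.60 (adjusted p = 0.0628; 7.68% called).

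Fcgrt of astrocyte-like cells moved less. It had 46.1 and 44.1 CPM in the negative and 76.5 and 73.0 CPM in the high bin of ATV-TfR (0.85, SE 0.14, edgeR adjusted p = 0.000277), without overlap, and lost the call without ATV-TfR pool 1 (0.81, adjusted p = 0.0813). Under ATV-CD98hc it was 45.2 and 53.0 CPM in the negative and 41.4 and 55.4 CPM in the high bin (-0.06, not called). High minus negative was greater under ATV-TfR than under ATV-CD98hc by 0.92 for B2m (edgeR, SE 0.22, adjusted p = 0.0122) and by 0.91 for Fcgrt (SE 0.24, adjusted p = 0.0245), in a contrast with 7.21% of genes called. The B2m difference was lost without ATV-TfR pool 1 (0.77, edgeR adjusted p = 0.199) or ATV-CD98hc pool 2 (0.79, adjusted p = 0.109), and the Fcgrt difference without ATV-TfR pool 1 or 2 (0.88 and 0.95, adjusted p = 0.205 and 0.128). In cells without UMIs of endothelial markers the B2m difference was 0.86 and not called (edgeR, adjusted p = 0.0778), and the Fcgrt difference was 1.12 (adjusted p = 0.0362). In the lower bins the treatments stood the other way round, with B2m lower under ATV-TfR than under ATV-CD98hc by -0.59 in the low (edgeR, SE 0.09, adjusted p = 0.000442; 3.88% of genes called) and by -0.57 in the medium bin (SE 0.10, adjusted p = 0.000645; 19.7% called), without overlap. Without cells with endothelial marker UMIs the medium-bin value was -0.33 and not called (adjusted p = 0.0834, edgeR). The fits count bins of a pool as independent. In this class the deviations of same-pool low and medium libraries correlated at 0.734 under ATV-TfR and 0.0225 under ATV-CD98hc. Trim21 stayed between 1.67 and 4.49 CPM in the 16 libraries of the ATVs.

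Endothelial RNA moved with the bins in this class. The 12 endothelial markers summed to 9.39 to 12.4 CPM in the negative and 362 to 620 CPM in the high bin of ATV-TfR astrocyte-like cells, and to 459 to 644 CPM in the medium bin of ATV-CD98hc. Astrocyte-like cells without any UMI of those markers had 85.8 and 76.3 CPM of B2m in the high and 30.2 and 28.9 CPM in the negative bin of ATV-TfR. In these cells B2m was higher by 1.55 (adjusted p = 3.22e-06, edgeR) and Fcgrt by 0.79 (adjusted p = 0.00592), and in the medium bin of ATV-CD98hc B2m by 0.88 (adjusted p = 0.000152). The markers of microglia summed to 149 to 178 CPM in the negative and 115 to 145 CPM in the high bin of ATV-TfR. The part of either kind of RNA in the B2m values was not tested beyond these measurements.

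In border macrophage-like cells Fcgrt was higher in the medium and high bins than in the negative bin of ATV-TfR, and B2m was not called. Fcgrt had 61.7 and 119 CPM in the negative, 229.7 and 169.7 CPM in the low, 245 and 236 CPM in the medium and 359 and 364 CPM in the high bin, from 15 to 108 UMIs each, and the negative libraries lay below all others. B2m had 863 and 1034 CPM in the negative and 770.4 and 1081 CPM in the high bin. Fcgrt was higher by 1.31 in the medium (edgeR, adjusted p = 0.0485; 6.74% of 8921 genes called) and 1.85 in the high bin (SE 0.39, adjusted p = 0.00196; 9.4% called). Under control IgG, Fcgrt had 176 CPM in the negative bin (1 library, 22 UMIs) and 162 and 107 CPM in the high bin (-0.38, not called; 5.25% of genes called). ATV-CD98hc had no negative library of at least 20 cells. There Fcgrt was 238 and 216 CPM in the low, 338 and 507 CPM in the medium and 179 and 277 CPM in the high bin, so that the low and high bins overlapped (-0.10, edgeR adjusted p = 0.95; 5.43% called). B2m was 752 and 693 CPM in its low, 835 and 822 CPM in its medium and 1274 and 1261 CPM in its high bin, without overlap (high minus low 0.73, edgeR adjusted p = 0.0656, and 0.0137 with the block). The high-bin call was lost without ATV-TfR pool 1 (1.43, adjusted p = 0.27, edgeR), and the medium-bin call without ATV-TfR pool 1 or 2 or ATV-CD98hc pool 2 (0.79, 1.76 and 1.24, adjusted p = 0.608, 0.19 and 0.0615). The rise under ATV-TfR exceeded that under control IgG by 2.23 (SE 0.63, edgeR adjusted p = 0.0262; 8.26% called), a test in which the 1 control negative library, of 33 cells, is assumed to vary like the other libraries. Without ATV-TfR pool 1 or 2 it was 1.81 (adjusted p = 0.271) or 2.58 (adjusted p = 0.0684).

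The endothelial markers in border macrophage-like cells summed to 12.5 to 49.3 CPM in the negative, 0 to 15.7 CPM in the low and 9677 to 10424 CPM in the high bin of ATV-TfR, and to 4393 CPM in the negative and 35.1 to 88.9 CPM in the high bin of control IgG. Under ATV-CD98hc they summed to 3415 to 4080 CPM in the low, 10539 to 11445 CPM in the medium and 3812 to 3878 CPM in the high bin. In cells without their UMIs Fcgrt of ATV-TfR was 75.7 and 122 CPM in the negative, 230 and 262 CPM in the medium and 247 and 179 CPM in the high bin. The medium bin kept its call there (1.13, adjusted p = 0.0429, edgeR) and the high bin did not (0.74, adjusted p = 0.394). The difference from control IgG was 0.56 in those cells (adjusted p = 0.816). Over the low, medium and high bins Fcgrt was higher and B2m lower than under control IgG, by 0.58 and -0.44 under ATV-TfR (edgeR, adjusted p = 0.0337 and 0.0208; 16.4% of genes called) and by 0.67 and -0.38 under ATV-CD98hc (adjusted p = 0.00911 and 0.0375; 19.4% called). None of the 4 was called in cells without endothelial marker UMIs, where Fcgrt and B2m were at 0.26 and -0.43 under ATV-TfR and at -0.03 and -0.28 under ATV-CD98hc (edgeR, adjusted p = 0.521, 0.0909, 0.997 and 0.361). Without control IgG pool 2 all 4 were lost (edgeR, 0.23, -0.33, 0.33 and -0.26). In these contrasts the low, medium and high bins of a pool entered as separate libraries with no pool term, although each treatment had 2 pools. Control IgG libraries of the same pool deviated together in this class, with correlations of 0.255 to 0.467. The adjusted p-values of the 4 therefore overstate the replication. The difference of ATV-TfR from control IgG in high minus negative of B2m, which rests on 1 control negative library, was -0.92 (edgeR, adjusted p = 0.157) and was called with the block (-1.07, adjusted p = 0.0313).

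**Figure D5:**
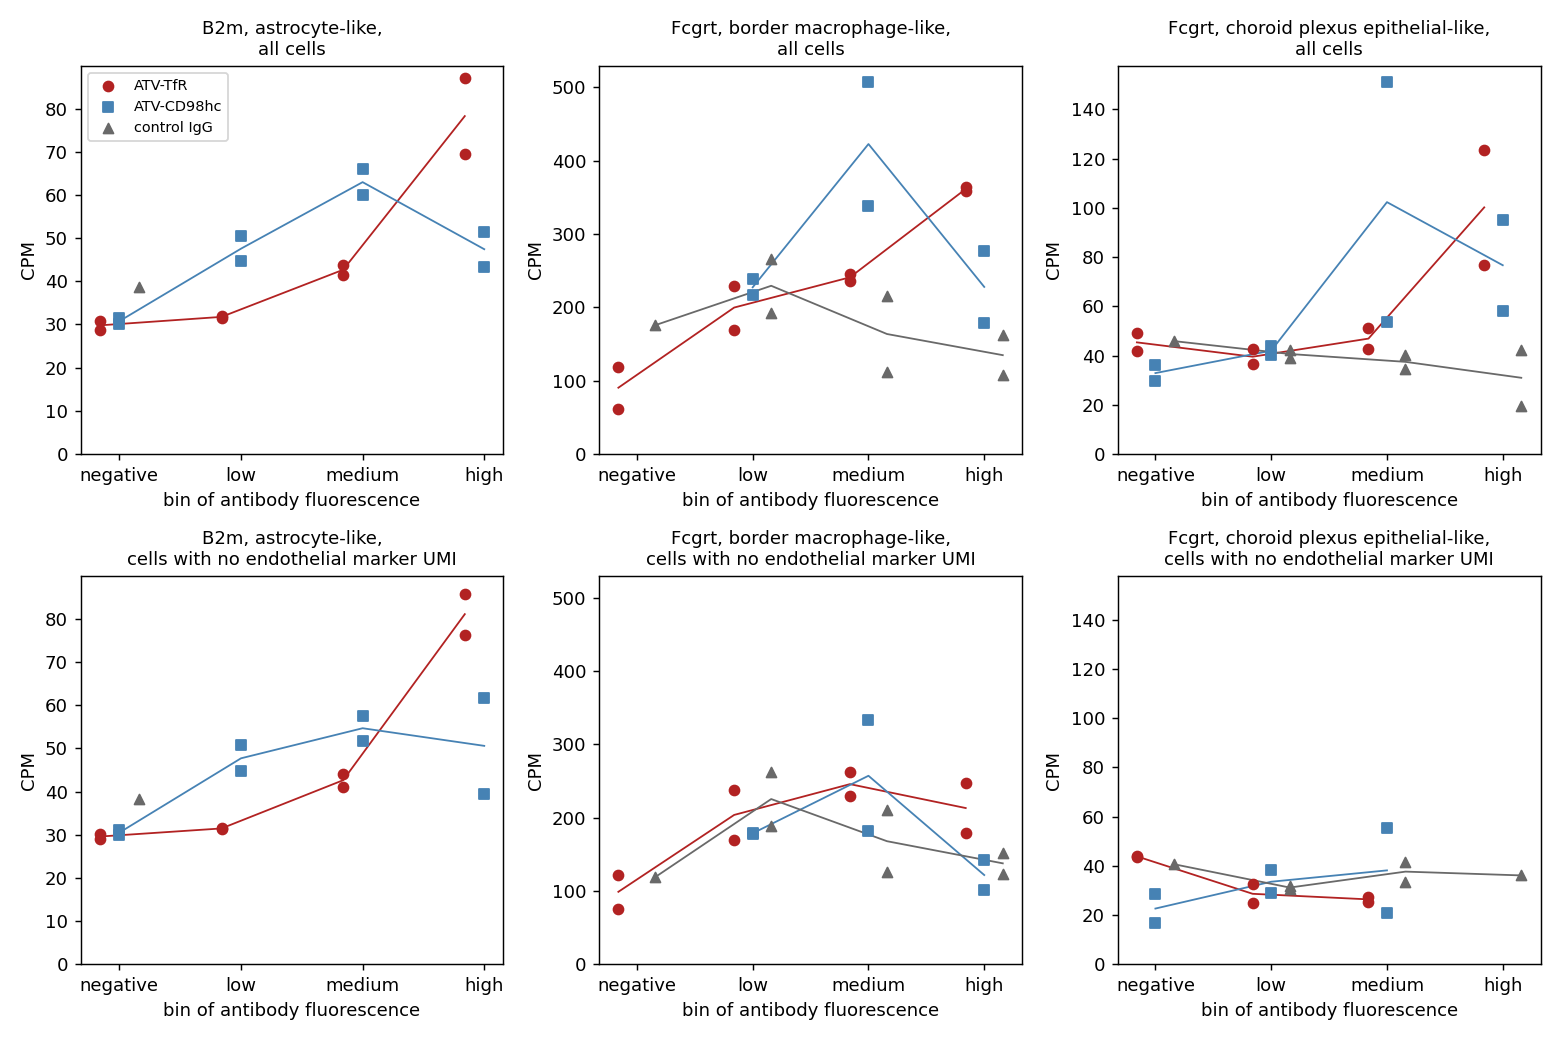
CPM by bin of B2m in astrocyte-like cells and of Fcgrt in border macrophage-like and choroid plexus epithelial-like cells, in all cells (top) and in cells with no UMI of the 12 endothelial markers (bottom), 1 point per library of at least 20 cells. The B2m rise of ATV-TfR astrocyte-like cells to 87.0 and 69.5 CPM is also seen in the bottom row, at 85.8 and 76.3 CPM, whereas Fcgrt of choroid plexus epithelial-like cells in the medium bin of ATV-CD98hc is 53.5 and 151 CPM in the top and 55.5 and 20.8 CPM in the bottom row, a drop in pool 2 alone.

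Choroid plexus epithelial-like cells, which make cerebrospinal fluid behind a fenestrated capillary bed, had more of both genes in the high bin of ATV-TfR and the medium and high bins of ATV-CD98hc when all cells were used. Fcgrt had 49.0 and 41.7 CPM in the negative and 123 and 76.9 CPM in the high bin of ATV-TfR (1.02, edgeR adjusted p = 0.028), and B2m 31.4 and 51.3 against 87.9 and 66.7 CPM (0.82, adjusted p = 0.0188), with 24.1% of 12621 genes called. Under ATV-TfR the low bin and the medium bin overlapped the negative one, with 36.5 and 42.6 and 42.5 and 51.3 CPM of Fcgrt and 29.96 and 38.9 and 47.6 and 37.4 CPM of B2m, and neither gene was called there (edgeR, -0.27 and 0.03 for Fcgrt, -0.29 and 0.06 for B2m; 4.53% and 1.89% of genes called). In the medium bin of ATV-CD98hc Fcgrt was at 53.5 and 151 CPM and B2m at 78.5 and 98.6 CPM, against 29.6 and 36.1 and 38.8 and 39.1 CPM in the negative bin (1.67 and 1.22, edgeR adjusted p = 0.00675 and 0.00403; 5.8% called). In this bin ATV-TfR was lower than ATV-CD98hc by -1.04 for both Fcgrt and B2m (edgeR, adjusted p = 0.0198 and 0.00112; 8.87% called). Neither was called in cells without endothelial marker UMIs (-0.58 and -0.26, adjusted p = 0.72 and 0.905), and the Fcgrt call was also lost without ATV-TfR pool 1 or 2 or ATV-CD98hc pool 2 (-0.93, -1.18 and -0.23, edgeR). In the high bin of ATV-CD98hc B2m was higher by 0.89 (adjusted p = 0.0149; 30.5% of genes called) and Fcgrt by 1.05 (adjusted p = 0.0535, and 0.0434 with the pool as a block, edgeR). Against control IgG Fcgrt was 0.69 higher under ATV-TfR (edgeR, adjusted p = 0.0193; 17.5% called), and under ATV-CD98hc Fcgrt was 0.86 (adjusted p = 0.00284) and B2m 0.60 higher (adjusted p = 0.00228; 13% called). Here too the bins of a pool entered as separate libraries, so these p-values overstate the replication. The Fcgrt call under ATV-CD98hc was lost without ATV-CD98hc pool 2 (0.44, adjusted p = 0.0932). Without ATV-TfR pool 1 its high-bin values were 0.71 for Fcgrt and 0.20 for B2m (edgeR, adjusted p = 0.451 and 0.777), and without pool 2 Fcgrt was at 1.28 (adjusted p = 0.0746). In the medium bin of ATV-CD98hc Fcgrt was at 0.96 without its pool 2 (adjusted p = 0.2), and B2m at 1.31 and 1.12 without pool 1 or 2 (adjusted p = 0.108 and 0.0559). B2m in its high bin was at 0.64 without pool 1 (adjusted p = 0.411). The Fcgrt difference of ATV-TfR from control IgG was lost without ATV-TfR pool 1 or 2 or control IgG pool 1 (0.64, 0.70 and 0.67, adjusted p = 0.106, 0.0684 and 0.0758).

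The endothelial markers in choroid plexus epithelial-like cells summed to 54.1 to 82.2 CPM in the ATVs' negative bins, 1562 to 3323 CPM in the high bin of ATV-TfR and 1608 to 5509 CPM in the medium bin of ATV-CD98hc. In cells without their UMIs Fcgrt had 55.5 and 20.8 CPM and B2m 35.3 and 29.1 CPM in that medium bin, from 5 to 11 UMIs each, against 28.7 and 16.6 and 36.3 and 22.1 CPM in the negative bin. None of the differences was called there (edgeR, 0.66 with adjusted p = 0.689 and 0.11 with adjusted p = 0.968). Against control IgG Fcgrt of ATV-TfR was at -0.31 in those cells, and under ATV-CD98hc Fcgrt was at 0.14 and B2m at 0.07, none of them called (edgeR, adjusted p = 0.364, 0.868 and 0.948), and the high bins had too few of them for a fit.

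Oligodendrocyte-like cells, which hold little Fcgrt, had more of it in the positive bins. Under ATV-TfR it went from 1.59 and 2.01 CPM (16 and 13 UMIs) in the negative to 8.25 and 15.4 CPM in the low and 8.69 and 11.6 CPM in the medium bin (2.61 and 2.44, edgeR adjusted p = 7.45e-05 and 0.00163; 10.9% and 21.2% of 12877 genes called). Under ATV-CD98hc it went from 1.58 and 1.57 CPM to 16.9 and 27.2 CPM in the low and 44.7 and 73.4 CPM in the medium bin (3.61 and 5.04, adjusted p = 5.43e-06 and 7.22e-08; 16.5% and 7.41% called). B2m rose under ATV-CD98hc, from 11.9 and 10.6 CPM to 77.8 and 61.0 and to 155 and 66.0 CPM (2.44 and 3.22, edgeR adjusted p = 2.53e-06 and 2.31e-07). Under ATV-TfR B2m was at 12.6 and 17.2 CPM in the low and 12.99 and 18.5 CPM in the negative bin (-0.17, not called). In the low bin B2m was lower under ATV-TfR than under ATV-CD98hc by -2.17 (SE 0.31, edgeR adjusted p = 0.00102; 0.683% called). In the medium bin, where B2m was 18.5 and 23.3 CPM under ATV-TfR, B2m was lower by -2.42 (SE 0.36, adjusted p = 0.000166, edgeR) and Fcgrt by -2.45 (SE 0.44, adjusted p = 0.000991; 7.28% called), and the B2m call was lost without ATV-CD98hc pool 1 (-1.62, adjusted p = 0.0936). No positive library overlapped the negative bin of its treatment in the Fcgrt values or in B2m of ATV-CD98hc. Without ATV-TfR pool 2 the medium-bin Fcgrt call of ATV-TfR was lost (2.38, adjusted p = 0.0507, edgeR).

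Markers of other cells rose in the same libraries. The 9 astrocyte markers in oligodendrocyte-like cells summed to 584 to 840 CPM in the negative and 3199 to 5138 CPM in the low bin of ATV-TfR, and to 4638 to 5250 CPM in the low bin of ATV-CD98hc. The endothelial ones went from 9.40 to 10.9 CPM in the negative to 2813 to 2849 CPM in the medium bin of ATV-CD98hc. Without endothelial marker UMIs Fcgrt in the low bin was 8.34 and 14.6 CPM under ATV-TfR (2.57, edgeR adjusted p = 0.000201) and 14.1 and 19.8 CPM under ATV-CD98hc (3.25, adjusted p = 0.000132). The part of the astrocyte markers was not tested.

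Microglia-like cells, the brain's resident macrophages, had more B2m in the medium bin of ATV-TfR and the high bin of ATV-CD98hc. It went from 504 and 613 CPM in the negative to 758 and 1216 CPM in the medium bin of ATV-TfR (0.90, edgeR adjusted p = 0.0152; 6.51% of 12713 genes called), and from 581 and 544 CPM to 1373 and 1181 CPM in the high bin of ATV-CD98hc (1.19, adjusted p = 0.00207; 5.64% called), without overlap. In the other positive bins of the ATVs tested every library lay above the negative ones, and edgeR called none of them without the pool as a block. The low bin of ATV-TfR had 649.5 and 827 CPM (0.46, edgeR adjusted p = 0.314, and 0.0372 with the block; 5.85% called). Under ATV-CD98hc the low bin had 673 and 604 CPM (0.21, adjusted p = 0.984, edgeR; 0.865% called) and the medium bin 1014 and 751 CPM (0.63, adjusted p = 0.134, and 0.00452 with the block; 4.37% called). In the low bin of control IgG B2m was at 1156 and 1217 CPM from 27 and 26 cells against 611 CPM in its negative bin (1 library; 0.95, edgeR adjusted p = 0.1, and 0.0225 with the block; 1.35% called). Fcgrt was at 85.7 and 79.6 CPM in the negative and 93.5 and 81.7 CPM in the medium bin of ATV-TfR, and at 70.0 and 81.6 CPM in the negative and 104 and 82.8 CPM in the high bin of ATV-CD98hc, and was not called. Among microglia-like cells without endothelial marker UMIs B2m of ATV-TfR had 498 and 608 CPM in the negative and 699 and 1167 CPM in the medium bin (0.82, edgeR adjusted p = 0.0476). With all cells the call of ATV-TfR was lost without its pool 1 or 2 (1.08 and 0.70, adjusted p = 0.179 and 0.357) and that of ATV-CD98hc without its pool 1 (1.16, adjusted p = 0.159).

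Fibroblast-like cells, of the meninges and vessels, had more B2m in positive bins of both ATVs, and under control IgG more than in its 1 negative library, which is assumed to vary like the others. It went from 166 and 209 CPM in the negative to 309 and 312 CPM in the low bin of ATV-TfR (0.67, edgeR adjusted p = 0.0465; 12.9% of 11898 genes called), from 162 and 191 to 364 and 332 CPM in the medium bin of ATV-CD98hc (0.98, adjusted p = 0.0341; 3.45% called) and from 175 CPM (1 library) to 291 and 352 CPM in the high bin of control IgG (0.93, adjusted p = 0.0448; 9.47% called). It was also higher in the medium bin of ATV-TfR (0.72, edgeR adjusted p = 0.0315; 13.3% called), the high bin of ATV-CD98hc (1.00, adjusted p = 0.0197; 5.99% called) and the low and medium bins of control IgG (1.04 and 1.01, adjusted p = 0.019 and 0.0211; 11.2% and 12.9% called), and was at 0.02 in the low bin of ATV-CD98hc, where it was not called. Over all classes edgeR called B2m in 34 of 116 contrasts and Fcgrt in 25 of 116. The share of all genes called over these contrasts together was not computed. Trim21 was called in 1 of its 103 contrasts in 8 classes. This was the low bin of ATV-TfR fibroblast-like cells (2.57, edgeR adjusted p = 0.0404; 12.9% of genes called), with 2 and 1 UMIs in the negative and 9 in each low library. It was lost without ATV-TfR pool 1 or 2 (adjusted p = 0.35 and 0.339, edgeR). The B2m calls of the ATVs were lost without any pool of their own (0.50 and 0.87 for ATV-TfR, 0.75 and 1.18 for ATV-CD98hc) or of control IgG, and that of control IgG without its pool 1 (1.05). Under ATV-TfR Fcgrt of fibroblast-like cells had 411 and 417 CPM in the negative and 269.8 and 243 CPM in the low bin (-0.75, adjusted p = 0.0699, and 0.001 with the pool as a block, edgeR) and was at -0.60 in the medium bin (edgeR, adjusted p = 0.171, and 0.00949 with the block). Under control IgG it was 258 CPM in the negative (1 library) and 309 and 252 CPM in the low bin (0.19, not called). The endothelial markers in fibroblast-like cells summed to 664 to 723 CPM in the negative, 268 to 290 CPM in the low and 1441 to 1444 CPM in the medium bin of ATV-TfR. They summed to 627 to 638 CPM in the negative, 5296 to 6212 CPM in the medium and 2228 to 3712 CPM in the high bin of ATV-CD98hc, and to 1031 CPM in the negative and 274 to 848 CPM in the positive bins of control IgG. Of 2923 fibroblast-like cells, 764 were without their UMIs in pools of at least 20 such cells, and of the B2m contrasts with a negative bin called these cells could be tested in the low bin of ATV-TfR alone (0.98, edgeR adjusted p = 0.045). In the low bin B2m of all fibroblast-like cells was higher under ATV-TfR (309 and 312 CPM) than under ATV-CD98hc (180 and 176 CPM), by 0.77 (edgeR, adjusted p = 0.0435; 4.82% called). That call was lost in cells without endothelial marker UMIs (0.92, edgeR adjusted p = 0.103), without any ATV pool or control IgG pool 1 (0.76 to 0.82) and with no filter on low counts (adjusted p = 0.0799). In the low bin they had 163 and 186 CPM of B2m under ATV-CD98hc and 378 and 352 CPM under control IgG (-1.03, edgeR adjusted p = 0.0134), and all fibroblast-like cells of that bin had 180 and 176 against 349 and 339 CPM. Over the low, medium and high bins of all cells this difference was -0.25 (edgeR, adjusted p = 0.204; 15.7% called), and that of Fcgrt was 0.09 (adjusted p = 0.79, edgeR). The 7 pericyte markers in fibroblast-like cells summed to 6381 to 7014 CPM in the negative and 428 to 719 CPM in the low bin of ATV-TfR, and their part in these values was not tested. In pericyte-like cells, where Trim21 was not tested, Fcgrt and B2m were not called in the high bin against the negative one, with Fcgrt at 0.31 (95% interval -0.11 to 0.72; 2.37% of 10102 genes called by edgeR) under ATV-TfR and 0.13 (95% interval -0.36 to 0.63; 0.604% called) under ATV-CD98hc.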

How the data were processed

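The deposited files were 10x Genomics matrices of UMI counts per gene and cell, made by the authors with Cell Ranger 7.1.0 (per the file headers). The submitters' processing notes also name Seurat 4 and 5 and the mm10 (GRCm38) build. The members and gene lists were chosen with earlier results of these data known.

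Barcodes with at least 500 genes, 800 UMIs and at most 10% mitochondrial UMIs were kept (249715 of 265025), and 15689 likely doublets were removed. In 8 libraries the top of the doublet score above percentile 94 was removed, since the automatic threshold had failed. These were both high libraries of each ATV, both medium libraries of ATV-CD98hc, and the pool 2 low libraries of ATV-CD98hc and control IgG. Every negative library had the automatic threshold. High minus negative under the ATVs therefore compares libraries with different doublet rules, and the part of this in the results was not tested. The 234026 cells were clustered without the 3 genes (scanpy 1.11.5, leidenalg 0.10.2, igraph 0.11.9; 2000 variable genes, 50 principal components, 15 neighbours, resolution 1, and 0.3 for endothelial subclusters), and classes were named from marker lists. Library totals were 1861238 to 90307818 UMIs. Limits from a count of 0 (3 UMIs) cover counting error only. Intervals of differences were built from the SE and degrees of freedom of the edgeR tests, so they reflect the spread between libraries in those fits.

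Counts were summed per class and library of at least 20 cells and tested with edgeR 4.0.16 in R 4.3.3 (quasi-likelihood, TMM factors, filterByExpr, all groups of a class in 1 fit, Benjamini-Hochberg over all genes tested, threshold 0.05), after a test on simulated data. Each group had at most 2 pools, and the spread was estimated from all libraries of a class together. Without the block, the bins of a pool counted there as independent libraries. The p-values of treatment comparisons within 1 bin may therefore overstate the replication as well. The control IgG negative bin was 1 library, assumed in each fit to vary like the other libraries. ATV against control IgG used the bins in which both sides had 2 libraries, which departs from the plan to use every positive bin. Where several bins entered, those of a pool counted as separate libraries with no pool term. With 2 pools per treatment the p-values of these contrasts overstate the replication. Neighbouring classes were compared on log2(CPM + 1) within pools (scipy 1.17.1). Bins of a pool share animals: over 13 pairs of bins of endothelial-like cells, same-pool libraries deviated together with correlations of 0.0736 to 0.972 (median 0.188), and the pool as a block was an alternative for contrasts of bins. The others were DESeq2 1.42.0, its size factors in edgeR, filters on low counts, at least 50 cells and leaving out each pool. Leaving out endothelial subcluster 0, using subcluster 1 alone, leaving out cells with endothelial marker UMIs, and the ratio of Fcgrt to B2m were chosen after seeing the data. The text names the 3 genes, up to 4 genes of each list called in endothelial-like cells (high minus negative) with the largest change, the list genes highest in a class, and the 5 genes most like each member among those with a mean of at least 10 CPM, of which 1 is not reported here.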

Additional observations from a re-analysis of the deposited data

Results flagged for a closer look

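Among 34 pairs of a member and a class, 3 had a pool that stood apart from the others by Dixon's 95% criterion, and chance gives about 1 in 20. B2m in microglia-like cells was 1252 CPM in control IgG pool 1, the highest of 6 pools, and Trim21 in the same cells was highest in the same pool, at 29.1 CPM. That pool is the one without a negative-bin library, and its values rest on 30 microglia-like cells with 129 B2m and 3 Trim21 UMIs, against 1042 to 3306 cells in the other pools. Fcgrt in choroid plexus epithelial-like cells was highest in ATV-CD98hc pool 2, at 95.4 CPM, the pool that had 151 CPM in its medium bin. The endothelial markers summed to 1608 to 5509 CPM in the 2 libraries of that bin, and their part in the value was not tested.

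High minus negative differed between treatments in 3 cases by a test of the difference itself. In astrocyte-like cells it was greater under ATV-TfR than under ATV-CD98hc by 0.92 for B2m and by 0.91 for Fcgrt (log2, edgeR), and in cells without endothelial marker UMIs by 0.86, which was not called, and by 1.12, which was. In border macrophage-like cells it was greater under ATV-TfR than under control IgG by 2.23 for Fcgrt, where the control negative bin was 1 library assumed to vary like the others, and by 0.56 in cells without endothelial marker UMIs, where it was not called.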

How the results depend on the processing

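For endothelial-like cells the rise of Fcgrt from the negative to the high bin was called under DESeq2, other size factors and filters, the pool block and a minimum of 50 cells, and it ran from 1.35 to 1.50 (ATV-TfR) and from 0.82 to 1.20 (ATV-CD98hc) with 1 pool left out, where some calls were lost (given beside the result). The differences from control IgG were not called and changed sign with the setting. With at least 50 cells, which leaves the low bin alone, Fcgrt was at -0.90 under ATV-TfR, now called, and at -0.10 under ATV-CD98hc, B2m of ATV-TfR at 0.25, and Trim21 at -0.43 and -0.44. In subcluster 1 alone B2m was at 0.0508 for ATV-TfR against control IgG and at 0.0574 for high minus negative of ATV-CD98hc, and Trim21 against control IgG was at -0.56 under ATV-CD98hc in the largest cluster alone. High minus negative of ATV-TfR was -0.61 for B2m in DESeq2, which called it, and -0.00586 for Trim21 with DESeq2's size factors in edgeR. With 1 pool left out, the control IgG differences ran from -0.31 to 0.25 (B2m, ATV-TfR), -0.46 to 0.0821 (B2m, ATV-CD98hc), -0.0603 to 5.37 (Trim21, ATV-TfR) and -0.0161 to 5.40 (Trim21, ATV-CD98hc), and Trim21 high minus negative under ATV-TfR from -0.27 to 0.66. The 5.37 and 5.40 come from leaving out control IgG pool 2, after which the control medium bin was 1 library of 27 cells with 0 Trim21 UMIs, so they depend on the prior count and are no effect sizes. The cause of the other changes was not tested.

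Counts of list genes moved more. Higher under ATV-TfR were 13, and 4 with DESeq2's size factors in edgeR, 4 in DESeq2, 3 with a filter at 4 in average log2 CPM, 22 with the pool as a block, 6 with at least 50 cells, 5 without subcluster 0, 8 in subcluster 1 alone and 2 to 14 with 1 pool left out. Lower were 5, and 8, 10, 8 and 3 with those size factors, in DESeq2, with the block and in subcluster 1 alone, and 3 to 8 with 1 pool left out. Under ATV-CD98hc 3 were higher, 8 with the block, 6 in subcluster 1 alone and 2 to 4 with 1 pool left out. There 1 was lower, and 3 with those size factors, 8 in DESeq2, 2 with no filter, 2 with the stricter filter, 3 with the block, 2 with at least 50 cells, 0 without subcluster 0, 0 in subcluster 1 alone and 1 to 3 with 1 pool left out. Of all genes 633 rose and 1013 fell under ATV-TfR, and 286 and 1235 with DESeq2's size factors in edgeR, 303 and 1769 in DESeq2 and 1377 and 1223 with the block. Under ATV-CD98hc 254 rose and 542 fell, and 134 and 654, 163 and 1336, and 558 and 736 in the same order. With 1 pool left out 513 to 1899 genes were called under ATV-TfR and 403 to 828 under ATV-CD98hc.

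Levels depended on the bins and cells used. The negative bin alone gave 342 CPM of Fcgrt and 582 CPM of B2m in endothelial-like cells and 38.0 CPM of Trim21 in T or NK cell-like cells (3 and 2 UMIs in 2 libraries), where the positive bins gave 9.15 CPM. Without endothelial marker UMIs T or NK cell-like cells had 829 CPM of B2m and 12.2 CPM of Trim21, from 1 pool of 33 cells with 1 Trim21 UMI, against means of 5 pools with all cells. Trim21 was 17.1 CPM in the largest endothelial-like cluster. Thinning to 1000 UMIs put 44.7%, 34.6% and 1.58% of endothelial-like cells at 1 or more UMIs of Fcgrt, B2m and Trim21. The slope of Fcgrt per B2m UMI under ATV-TfR was 0.475 without subcluster 0 and 0.542 in subcluster 1 alone. In cells without endothelial marker UMIs Fcgrt against control IgG was -0.031 under ATV-CD98hc in border macrophage-like cells and -0.31 under ATV-TfR in choroid plexus epithelial-like ones. Border macrophage-like and choroid plexus epithelial-like cells were 1 cluster each, so the largest cluster alone gave no alternative there. Pairing by pool changed 9 of 136 calls compared between bins, each given beside its result. No paired analysis was possible for direct comparisons of treatments, within a bin or over bins, because each pool belongs to 1 treatment. The planned block was not run for them. It was run where changes between bins were compared between treatments, since those changes are within pools. Trim21 had 3 to 8 UMIs in the endothelial-like cells of each ATV negative-bin library, which limits its test.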
